A study of Mus musculus with 12 samples.

Results

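Mouse genes that were first known from a gene prediction or from a cloned transcript carry placeholder symbols, a number after Gm for predicted genes and an ending in Rik for clones of the RIKEN collection. Of the 17419 genes measured, 2817 had a symbol of this kind, and the 312 with a mean of at least 50 reads over the 12 libraries are described here. They were chosen by symbol and by this mean read count, which is the measured value in the rule. They comprise 180 Gm and 132 Rik genes. The cells were NIH-3T3, an established mouse fibroblast line, wild type in all groups and grown in the same medium. They received 4-thiouridine (4sU), a uridine analogue that is built into RNA as it is made, at 800 µM for 15, 30, 60, 90 or 120 min, or no 4sU (no4sU). Each of these 6 groups had 2 libraries, A and B. The labels do not say whether A and B were separate cultures, so p-values measure only the spread between libraries, which may be technical.

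In SLAM-seq, iodoacetamide turns incorporated 4sU into a base that is read as C, and from these conversions the authors estimated the NTR (new-to-total ratio), the fraction of the transcripts of a gene that were made since labelling began. At a constant RNA level, a transcript that is degraded and replaced quickly reaches a high NTR early, and a long-lived transcript stays low. Many Gm entries are not stand-alone genes. A readthrough locus joins exons of neighbouring genes in 1 transcript model, as when transcription runs past the end of a gene into the next. A processed copy is a transcript that was reverse-transcribed and put back into the genome, usually without introns and often of an abundant housekeeping message. In both cases the RNA of the placeholder and of its named relative look alike to a short read. Other placeholders are long non-coding RNAs or coding genes that later received a name.

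The annotation showed such a mixture. Exon positions in GENCODE M21 (GRCm38) placed the 311 annotated genes in 4 classes, which were defined after the files had been seen. Own exons were found for 132 genes (42.3%), 104 of them Rik genes: under 50% of their exonic bases were shared with other genes on the same strand, under 10% lay opposite another gene, and no near-identical copy was found. A further 116 (37.2%) shared at least 50% of their exonic bases with other genes on the same strand, and 115 of these were Gm genes. In this class, 111 carried the annotation's readthrough tag, 54 had no exonic base of their own, and 104 overlapped at least 2 genes of the table. Near-identical copies numbered 34 (10.9%), with a median identity of 99.5% to a gene elsewhere, and 22 of them had no intron. In 29 genes (9.29%) at least 10% of the exonic bases lay opposite exons of another gene. The second of 2 genes with the symbol 4933434E20Rik was not annotated. By gene type, 263 of the 311 were protein coding, 31 lincRNAs, 16 antisense RNAs and 1, Gm10033, a transcribed pseudogene.

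RefSeq names for GRCm38.p6 gave the same symbol for 177 of the 312 genes, another symbol for 8 and no entry for 127, of which 102 were Gm genes with shared exons. The 8 with another symbol were 2900097C17Rik (Norad), B230118H07Rik (Iftap), 2410131K14Rik (Spring1), C530008M17Rik (Cracd), 4931406P16Rik (Garre1), 4930452B06Rik (Cfap20dc), 1110012L19Rik (Eola1) and Gm37494 (Gm33989). The label uncharacterised thus fitted the set in part, since the Gm members were mostly joined or copied forms of known genes. Small RNA genes lay within 27 of the 312. Gm49890 holds Mir31, 2610318N02Rik holds Mir130b and Mir301b, 3110082I17Rik holds Mir339, and the joined locus Gm45713 holds Snord32a, Snord33, Snord34 and Snord35a, box C/D RNAs that guide methylation of ribosomal RNA.

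The joined loci can be read from their exon junctions. The sequences that follow are from GRCm38, 5′ to 3′, and span the point where a locus passes from 1 gene to the next, with the last 30 bases of the upstream gene's exon in lower case and the first 30 of the downstream gene's exon in capitals. They are shown because a read across such a point can tell the joined transcript from the named gene. A read within either exon cannot. Gm42674 (chr3:90601904-90605885, plus strand) joins S100a3 to S100a4, a calcium-binding protein abundant in fibroblasts. Gm20390 (chr11:93949819-93968293, minus strand) joins the nucleoside diphosphate kinases Nme1 and Nme2, and Gm49804 (chr17:27580780-27635222, minus strand) joins Rps10, a protein of the small ribosomal subunit, to Nudt3.
Gm42674: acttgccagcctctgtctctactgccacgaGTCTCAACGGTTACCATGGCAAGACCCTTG
Gm20390: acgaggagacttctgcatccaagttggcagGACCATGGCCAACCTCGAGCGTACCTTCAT
Gm49804: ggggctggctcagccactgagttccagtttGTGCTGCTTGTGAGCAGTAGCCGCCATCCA
Gm49369: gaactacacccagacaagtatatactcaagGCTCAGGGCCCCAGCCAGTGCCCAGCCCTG
Gm49369 joins Ctsd, a lysosomal protease, to Ifitm10. Among 112 loci with shared exons that were searched, 48 had a junction of this kind within coding sequence. In 45 of these the 60 bases occurred whole in no gene outside the searched loci. In Gm49909, Gm49450 and Gm49391 they did occur in another gene, so a read there does not single out the joined transcript.

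Some copies differ from the gene they match by few bases. Identity in the class went down to 95.1%, and which gene of a pair is the source was not tested. Gm2000 matches Rpl35, a protein of the large ribosomal subunit, with 1 difference in 369 coding bases. Gm4737 matches Ahcy, the enzyme that splits S-adenosylhomocysteine, with 4 differences in 1296. Gm10053 matches Cycs, the electron carrier cytochrome c, with 0 differences in 315. Coding bases 87 to 176 of the first pair and 429 to 518 of the second are shown from GRCm38, with the positions that differ in capitals, to show how little of a read can tell copy from source.
Gm2000: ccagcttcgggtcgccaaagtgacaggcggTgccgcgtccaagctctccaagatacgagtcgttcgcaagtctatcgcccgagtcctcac
Rpl35: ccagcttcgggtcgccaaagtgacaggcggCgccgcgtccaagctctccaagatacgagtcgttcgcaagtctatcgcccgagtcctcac
Gm4737: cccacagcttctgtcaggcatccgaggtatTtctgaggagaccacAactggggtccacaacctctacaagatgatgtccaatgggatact
Ahcy: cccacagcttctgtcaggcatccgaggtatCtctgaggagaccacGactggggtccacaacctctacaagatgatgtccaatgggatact
Among the read counts deposited for the 34 copies, 85.3% were not whole numbers, against 26.5% for the genes with shared exons, 28.6% for those with own exons and 29.8% for the 9668 other genes that averaged 50 or more reads. The sources used here do not give how the authors divided reads between genes. The counts of copies, of shared exons and of antisense partners are therefore uncertain by an amount that no error below includes.

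The member with the sequence feature best known is 2900097C17Rik, the long non-coding RNA Norad (chr2:156388065-156392979, minus strand, 1 exon of 4915 bases). Norad is known for binding Pumilio proteins, which recognise the 8 bases TGTANATA. Its transcript strand held 11 matches. Of 2523 other genes with transcripts of 4000 to 6000 bases, 42.2% held a match, their median was 0, and 1 had more, with 15. A match is a description of the letters and no proof of binding. A stretch of 150 bases (chr2:156391339-156391488, minus strand, bases 1492 to 1641 of the transcript) is shown with its 2 matches in capitals.
2900097C17Rik: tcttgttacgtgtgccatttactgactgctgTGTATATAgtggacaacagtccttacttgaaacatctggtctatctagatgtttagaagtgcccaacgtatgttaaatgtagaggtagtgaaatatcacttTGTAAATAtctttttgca

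Libraries held 9917026 to 13739380 reads. Levels are given as CPM (read counts scaled by library size, with edgeR's TMM factors). The 2 no4sU libraries differed from each other more than those of the labelled groups. A minus B in log2 CPM had an SD over the 312 genes of 0.260 in no4sU and of 0.144 to 0.169 in the labelled groups. In no4sU it followed gene length with a Spearman rho of -0.37 over the 312 genes, which share those libraries. These values do not show which of the 2 departs. The counts of members called against no4sU are therefore also given with each library left out in turn, and the median changes by class without no4sU A. Each such fit leaves 1 library in a group, and no share of all genes is given beside it. Its counts show how far the calls moved, and cannot be set against the background. All 8 fibroblast markers were found, with a summed level of 15783 to 19419 CPM per library. The leukocyte markers Ptprc and Cd68 summed to 4.28 to 6.88 CPM, mostly Cd68, the 2 epithelial markers in the table to 0 to 0.582 CPM, and the 4 endothelial markers to 0.750 to 1.80 CPM. In bulk RNA, fewer cells of a type and less RNA per cell cannot be told apart.

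New RNA accumulated at different speeds in the 4 classes. Genes with own exons and those with antisense overlap were replaced fastest, too close to each other to rank. Those with shared exons and the copies were slowest. Over all 312 genes the median NTR was 0.0089 after 15 min, 0.0606 after 30 min, 0.177 after 60 min, 0.288 after 90 min and 0.398 ± 0.0251 (SD, n = 2 libraries) after 120 min, against 0.362 for the 9668 other genes after 120 min. Own exons gave 0.505 ± 0.0237 and antisense overlap 0.497 ± 0.105. Copies gave 0.271 ± 0.0175 and shared exons 0.296 ± 0.00608. As a half-life, which assumes a constant RNA level, the 120 min values correspond to a median of 120 ± 7.75 min for own exons and 241 ± 10.9 min for shared exons, against 193 ± 5.87 min for the other genes. Single genes ranged from an NTR of 0.0324 to 1. These are descriptions: 2 libraries a group allow no exact permutation p below 0.33 for a single value.

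**Figure D1:**
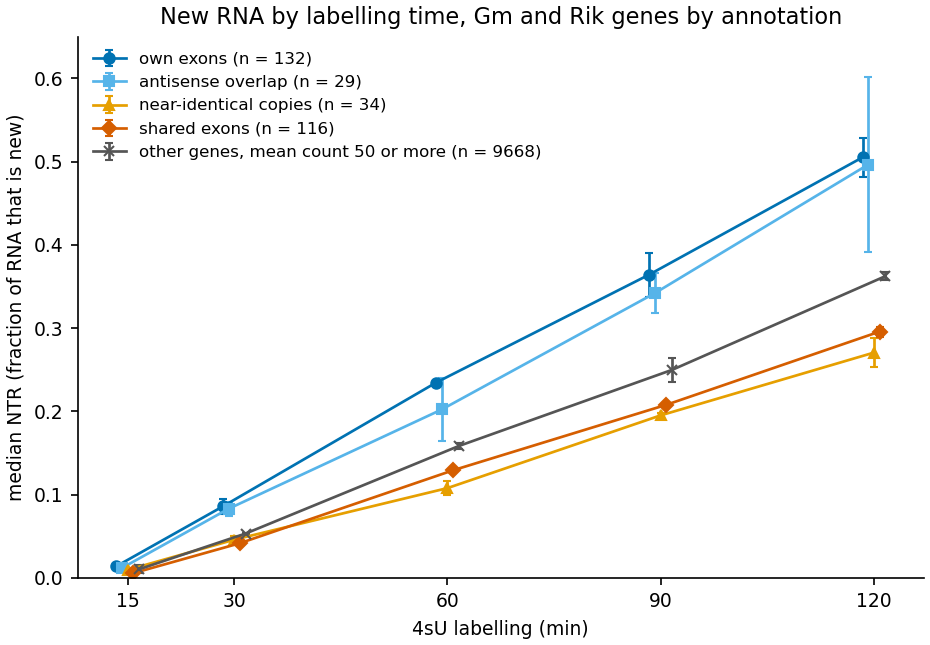
Median NTR (fraction of RNA that is new) against 4sU labelling time in minutes, for the 4 annotation classes and the 9668 other genes; points are means of 2 libraries and bars are SD. At 120 min own exons reached 0.505 and shared exons 0.296, with the other genes at 0.362 between them.

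Gm genes had a median NTR of 0.332 after 120 min and Rik genes 0.473. Within own exons, non-coding genes had a median NTR of 0.666 (n = 27 genes) and coding genes 0.481 (n = 104). For comparison, 42 other long non-coding genes had a median of 0.633, 17 named ones such as Malat1, Neat1 and the small nucleolar RNA hosts 0.799, and 9616 other coding genes 0.362.

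The genes with shared exons had NTRs close to those of the gene they overlap. Each was set beside the overlapping gene of highest count. Over the 116 pairs the median absolute difference after 120 min was 0.0275, 79 pairs (68.1%) lay within 0.05, and the deposited 90% intervals overlapped in both libraries in 88 pairs. The Spearman rho of the NTR over the pairs was 0.93, which is across genes that may share reads. Their counts were a median of 0.559 times those of that gene.

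Gm42674, the member of highest level, had an NTR of 0.0777 and 0.0770 in the 120 min libraries A and B, and S100a4 had a mean of 0.0748. Its mean count of 9792 reads stood against 22411 for S100a4 and 20.5 for S100a3, the upstream gene whose exons it also holds. The joined locus thus had many more reads than one of its 2 genes. Gm45713 likewise had a mean count of 8461 where Rpl13a, a protein of the large ribosomal subunit, had 11425 and Flt3l, a cytokine gene, had 23.4. Gm49369 had 1977 where Ctsd had 6773 and Ifitm10 had 0.25. Gm20390 lay between Nme1 and Nme2, which are both abundant, with counts of 6885, 3139 and 6894 and NTRs of 0.0875, 0.113 and 0.0859 in the order Gm20390, Nme1, Nme2.

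Some Gm and Rik genes overlap genes of unlike turnover. Among 72 with at least 2 partners of at least 50 reads, a minimum chosen after seeing the data, the partners' NTRs were at least 0.2 apart for 32. In 27 of these the member's NTR was between the lowest and the highest partner, and in 26 it was nearest to the partner that shares the most bases; the wide range that chose them makes a value inside it likely, so these counts are a description. The widest range was that of Gm45928, with 0.548 between Pold4 (0.239), a DNA polymerase delta subunit, and Clcf1 (1), a cytokine of the interleukin-6 family. Outside the range of their partners were Gm20503, Gm43738, Gm44973 and Gm49804, all below both, and Gm49361, whose 0.932 was above Xpo4 (0.368) and Lats2 (0.923).

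The lowest NTRs belonged to loci with shared exons or a near-identical copy. By the rule of the lowest means after 120 min among 201 members with at least 100 reads and an interval narrower than 0.2, the 6 lowest were Gm49394, Gm42674, Gm49721, Gm20503, Gm20390 and Gm49909. Gm49394 shares exons with Igf2, the imprinted insulin-like growth factor, and had NTRs of 0.0241 and 0.0406 in A and B, next to a mean of 0.0286 for Igf2. Its intervals after 120 min ran from 0.0108 to 0.0572 in A and from 0.0221 to 0.0761 in B. Gm49909 joins the myosin light chains Myl12a and Myl12b and had 0.0931 and 0.0830, above the mean of 0.0677 for Myl12a. Gm49721, a copy of Gm49673 that also shares exons with Rnaset2b, had 0.0684 and 0.0997, and Gm20503, joined to the G protein subunit Gng10, had 0.0873 and 0.0847. No locus with own exons was among the 6.

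Copies mostly had NTRs close to that of the gene they resemble. Over the 34 pairs the median absolute difference was 0.0333, 22 (64.7%) lay within 0.05, and the intervals overlapped in both libraries in 28. The rho was 0.94, again across genes that may share reads. The pair of 2900097C17Rik and Gm7292 was counted in both directions. Counts were a median of 0.365 times those of the matching gene. Gm4737 had an NTR of 0.123 where Ahcy had 0.114, and their mean counts were 2054 and 2093. Gm10053 had 0.136 where Cycs had 0.132, with counts of 376 and 1866, although their coding bases were the same. Gm10184 had 0.423 where Kpna2, an importin, had 0.387. Gm2000 had 0.131 where Rpl35 had 0.105, and there the intervals did not overlap in both libraries. The pair of 2900097C17Rik and Gm7292 (99.2% identity) had 0.782 and 0.797, with 2190 and 489 reads. Differences over 0.2 were found in 2 pairs, Gm14325 with Gm4724 (0.639 and 0.372) and Gm15446 with Zfp932 (0.784 and 0.531).

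**Figure D2:**
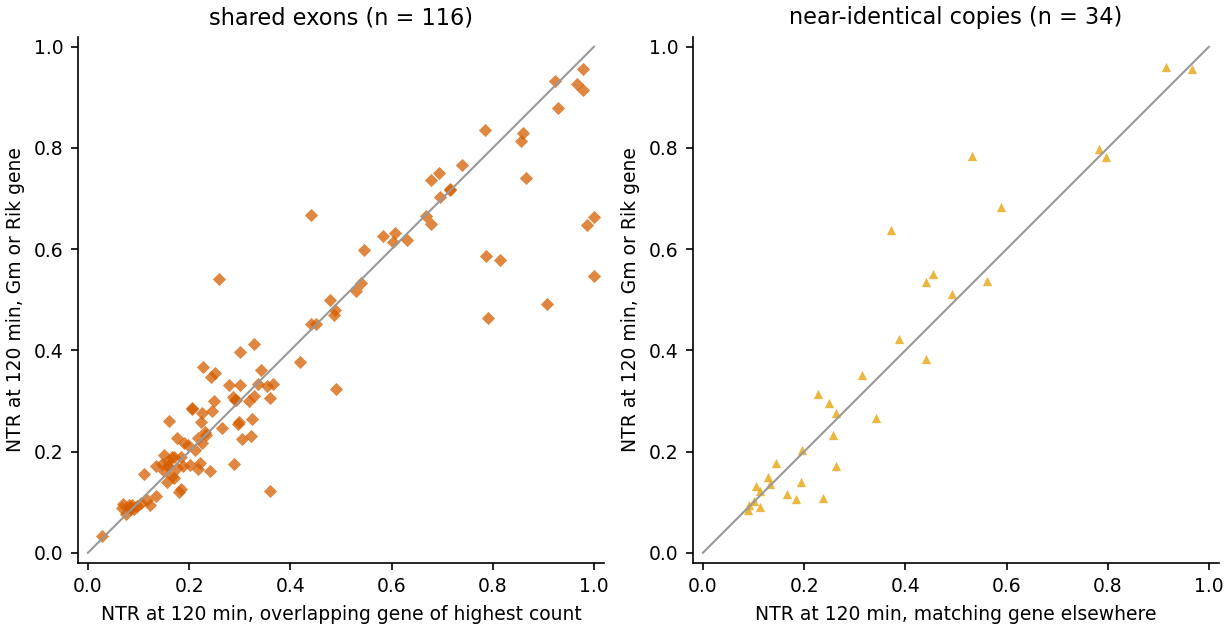
NTR after 120 min of each Gm or Rik gene against that of the overlapping gene of highest count (left, 116 pairs with shared exons) and of its near-identical relative (right, 34 pairs); the line marks equal values. Most points lie near the line, with median absolute differences of 0.0275 and 0.0333, and 10 and 2 pairs lie over 0.2 from it.

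The highest NTRs of single genes belonged mostly to genes with own exons. The 6 highest NTRs by the same rule were 2610021A01Rik, 4921524J17Rik, Gm49890, 1700017B05Rik, Gm37494 and 5430416N02Rik, of which 5 had own exons and 5430416N02Rik lies in part opposite Gm27286. Gm49890, a lincRNA of 3 exons on the minus strand (chr4:88909855-88938521) that holds the precursor of the microRNA miR-31, had NTRs of 0.225 and 0.106 after 15 min, 0.730 and 0.773 after 30 min, and 1 in all 6 libraries from 60 min on. 5430416N02Rik, also a lincRNA, had 0.330 and 0.184 after 15 min, 0.951 and 0.672 after 30 min, 1 and 0.988 after 60 min, and 0.892 and 0.869 after 90 min. Its values after 90 min were thus below those after 60 min in A and in B, which limits how exactly they can be read. The cause was not tested. Gm49890 and 5430416N02Rik had at least 0.988 after 60 min, when the median of the 312 genes was 0.177. The coding gene 2610021A01Rik was slower at first, with 0.0569 and 0.0156 after 15 min, 0.585 and 0.673 after 60 min and 1 in both libraries after 120 min. The coding gene 4921524J17Rik also reached 1 in both after 120 min, 1700017B05Rik had 0.968 and 1, and Gm37494, a lincRNA of 16021 exonic bases, had 1 and 0.964. A value of 1 is the deposited maximum, and for Gm49890 the lower ends of the 90% intervals after 120 min were 0.949 and 0.971.

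Other well-measured genes were slower. 2900097C17Rik (Norad) had NTRs of 0.0571 and 0.0282 after 15 min, 0.359 and 0.386 after 60 min, and 0.784 and 0.780 after 120 min, an apparent half-life of 54.6 min. 2610507B11Rik, the mouse counterpart of the human lipid transfer gene BLTP2 and the own-exon gene with the most reads (mean count 3458), had 0.175 and 0.185 after 120 min and an apparent half-life of 418 min. Gm38394, joined to the zinc finger gene Zc3h11a, had 0.5 and 0.460, and Gm49450, joined to the alpha tubulins Tuba1a and Tuba1b, had 0.210 and 0.217. The pseudogene Gm10033 had 0.697 and 0.585.

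Sequence features were compared between the classes and with turnover. The AU-rich pentamer ATTTA, counted on the transcript strand only and known from unstable messages, had a median of 1.11 per kb in own-exon genes, 0.365 in genes with shared exons and 0.927 in the other genes. Its rho with the NTR was 0.08 in own-exon genes (n = 132), 0.16 in genes with shared exons (n = 116) and 0.10 in the other genes, all across genes that share the libraries. Among genes with shared exons the median was 0.701 per kb at an NTR of at least 0.6 and 0.291 under 0.4. The rho of NTR with transcript length was 0.23 in own-exon genes, 0.45 in genes with shared exons and 0.32 in the other genes. A start within 1000 bases of a start on the opposite strand was found for 15.9% of own-exon genes, 11.2% of those with shared exons and 11.4% of the other genes.

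Against other genes of like count, the own-exon genes kept a higher NTR. The other genes were not sorted into classes and so include named genes that members overlap or resemble. Genes were placed in 5 bins of mean count and the differences of the bin medians were averaged with the members as weights. For all 312 genes the NTR after 120 min differed from that of genes of like count by 0.0106 ± 0.00607 (SD, n = 2), and this changed sign, to -0.0151, over genes with an interval narrower than 0.2, and to -0.0203 over members with at least 200 reads. Own-exon genes were higher by 0.0864 ± 0.0128, and genes with shared exons differed by -0.0718 ± 0.0331. The distance of own-exon genes was 0.00184 ± 0.00570 after 15 min, 0.0245 ± 0.00387 after 30 min, 0.0557 ± 0.00282 after 60 min and 0.0667 ± 0.0154 after 90 min. Since NTRs start low in all genes, such a gap widens with labelling, and its growth is no separate result.

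The own-exon genes were above the other genes in each of the 5 bins, by medians of 0.538 and 0.482 at 50 to 100 reads, 0.596 and 0.453 at 100 to 200, 0.512 and 0.409 at 200 to 500, 0.372 and 0.368 at 500 to 1000, and 0.363 and 0.267 at 1000 and over. At 500 to 1000 reads the gap was smaller than the SD of 0.00902 between libraries. Within coding genes the difference at like count was 0.0737 ± 0.000478 (104 own-exon genes against 9616). Within long non-coding genes it had the other sign, -0.0882 ± 0.00254 (27 against 42), with few genes in each bin.

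**Figure D3:**
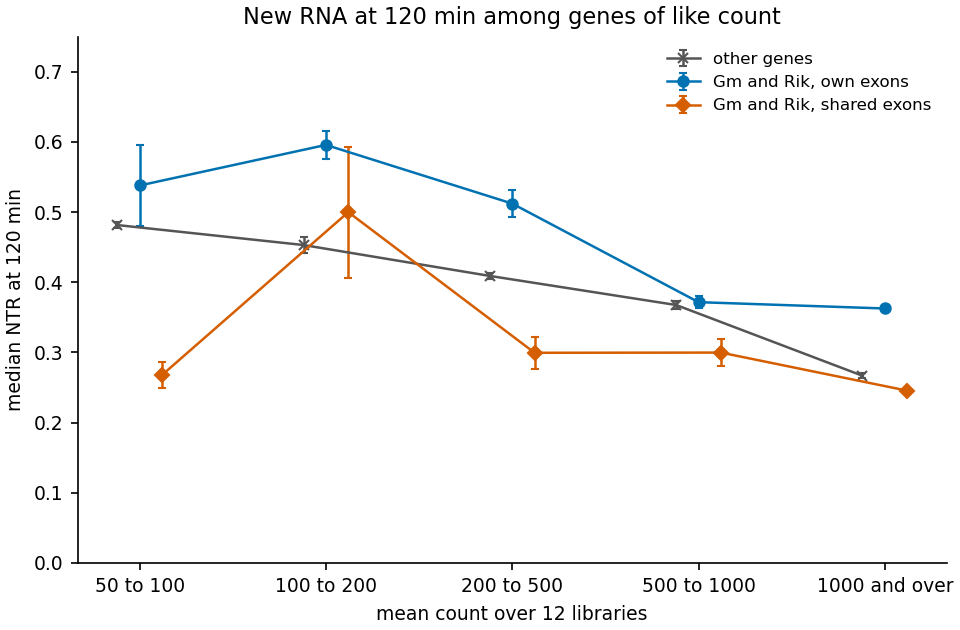
Median NTR after 120 min in 5 bins of mean count over the 12 libraries, for Gm and Rik genes with own exons, those with shared exons and the other genes; points are means of 2 libraries and bars are SD. Own-exon genes lie above the other genes in every bin, from 0.538 against 0.482 in the lowest to 0.363 against 0.267 in the highest.

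The study asked how the length of labelling biases quantification, and for the counts the question is which genes change as 4sU is present for longer. Up to 60 min no member passed the threshold, an adjusted p below 0.05 in edgeR's quasi-likelihood test with Benjamini-Hochberg adjustment over 11564 genes, and 2 fell after 90 min. The counts against no4sU were 0 at 15, 30 and 60 min (over all genes tested 0%, 0% and 0.0173%). At an unadjusted p below 0.05, edgeR had 20, 18 and 26 of the 312, and DESeq2 had 6, 8 and 8 and called 0. These counts moved with the reference: without no4sU B 35, 33 and 29 were called at 15, 30 and 60 min, and without no4sU A 1, 1 and 5. At 90 min (1.39% over all genes, 0.943% lower), Gm49890 fell by 0.61 on the log2 scale (adjusted p = 0.0052) and Gm45062 fell by 0.58 (adjusted p = 0.0365), and the count of 2 became 1 without 90 min A, 0 without 90 min B, 36 without no4sU A and 17 without no4sU B.

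After 120 min, 32 of the 312 genes differed from no4sU in the same edgeR test, or 10.3%, against 14.2% of all genes tested and 12% of other genes of like count. The count was thus near the background. Of these, 18 rose and 14 fell (5.43% and 8.78% over all genes); with library size alone in place of TMM 6 rose and 25 fell, the median of all genes moving from 0.0065 to -0.060. The count was 7 without either of the 120 min libraries, 89 without no4sU A and 36 without no4sU B, and DESeq2 called 14. Against 15 min, a comparison that shares the 120 min libraries, 45 of 312 (14.4%) were called against 19.3% of all genes and 16.3% of genes of like count. There 27 rose and 18 fell (7.93% and 11.3%), or 15 and 27 with library size alone. Without a library of these groups 11 (15 min A), 21 (15 min B), 18 (120 min A) and 14 (120 min B) were called, and DESeq2 called 22.

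By class, 10 genes with shared exons rose from no4sU to 120 min and 3 fell, while 6 with own exons rose and 9 fell. Against 15 min these were 16 and 4, and 5 and 11. Copies gave 1 and 1 against no4sU, and 5 and 1 against 15 min. The shares called were near or below those of other genes of like count, with 11.2% against 13.6% for shared exons and 11.4% against 11% for own exons from no4sU, and 17.2% against 18.5% and 12.1% against 14.9% from 15 min. DESeq2 gave 6 rises and 1 fall for shared exons and 1 and 5 for own exons against no4sU, and 8 and 1, and 2 and 6, against 15 min. Without no4sU A, the median log2 fold changes against no4sU were 0.126 for shared exons and -0.0591 for own exons. The classes were not split with any other library left out, so how the class counts hold there is not known. With library size alone, shared exons gave 5 rises and 6 falls against no4sU and 9 and 6 against 15 min, and own exons gave 0 and 15, and 3 and 15. The median log2 fold changes after 120 min were 0.10 and 0.11 for shared exons, against no4sU and 15 min, and -0.03 and -0.01 for own exons, where all genes tested had 0.01 in both. With library size alone they were 0.04 and 0.05, and -0.09 and -0.07, where all genes tested had -0.060 and -0.051. At like count the shared-exon genes differed from other genes by 0.10 and the own-exon genes by -0.01 and 0.00.

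Direction went with turnover. Of the 18 members that rose against no4sU, 17 had an NTR after 120 min under 0.4 (median 0.144), and of the 14 that fell, 13 had at least 0.6 (median 0.787). Against 15 min these were 24 of 27 and 15 of 18. The rho of log2 fold change with NTR was -0.60 and -0.63 over the 312 members and -0.73 and -0.74 over the other genes, in the order no4sU and 15 min, all across genes that share libraries. Among members with an NTR of 0.8 to 1, 0% rose and 15.0% fell against no4sU, and among other genes with the same NTR 0.524% rose and 33.5% fell. These shares were not matched for read count. The median log2 fold changes were close, -0.258 for the 40 members and -0.244 for the 1336 other genes.

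**Figure D4:**
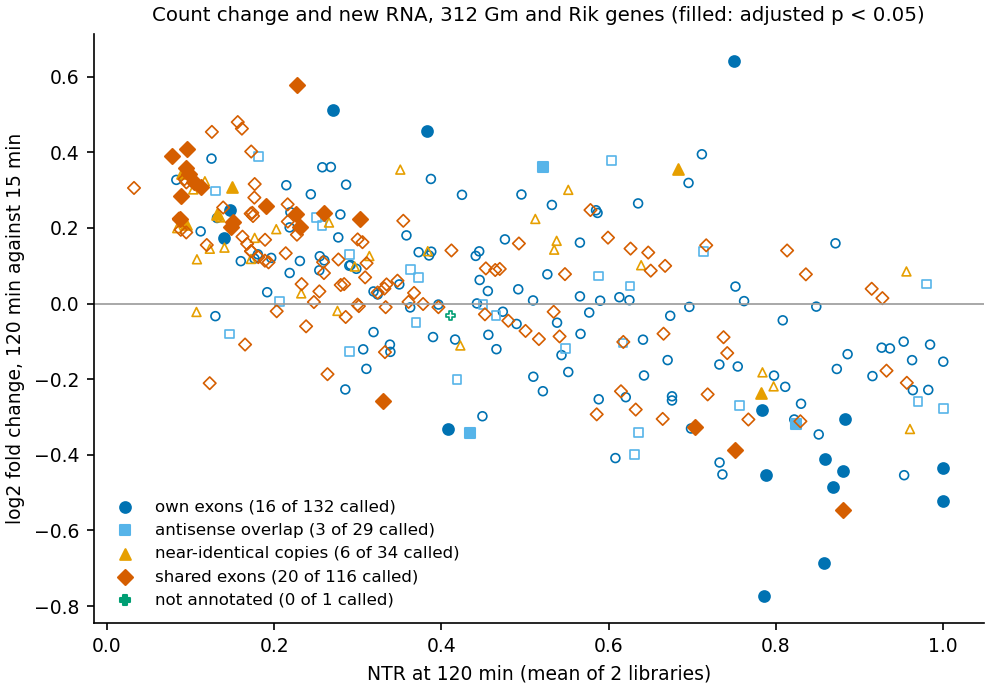
Log2 fold change of counts, 120 min against 15 min, against the NTR after 120 min for the 312 Gm and Rik genes by annotation class; filled points passed an adjusted p below 0.05. Filled points above 0 lie mostly at an NTR under 0.4 (24 of 27) and those below 0 at 0.6 or more (15 of 18).

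Of the named calls, edgeR fitted to the 2 groups alone kept 2 of 18 against no4sU and 22 of 22 against 15 min. DESeq2 kept 12 of 18 and 11 of 22. Against no4sU it did not call Gm10501, 2200002D01Rik, Gm49774, Gm49711, Gm49391 and Gm49336 (DESeq2 adjusted p = 0.0626 to 0.219). Against 15 min it did not call Gm50322, 9330159F19Rik, 4921524J17Rik, Gm49774, Gm49391, Gm49405, C030006K11Rik, 6330403L08Rik, Gm47283, 1700123O20Rik and Gm28539 (DESeq2 adjusted p = 0.054 to 0.193). With library size alone, edgeR kept 12 and 20 of them, and lost the rises of Gm49804, Gm49450, 2610507B11Rik, Gm49774, Gm49711 and Gm49391 against no4sU and of 6330403L08Rik and Gm47283 against 15 min.

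The fall with the smallest adjusted p against no4sU among the named genes was that of Gm49890, the host of Mir31. Its CPM was 34.6 and 30.4 in no4sU A and B, 30.8 and 28.7 after 15 min, 27.1 and 30.9 after 30 min, 22 and 23.4 after 60 min, 22.3 and 20.2 after 90 min, and 21.2 and 22.7 after 120 min. All libraries from 60 min on were below all earlier ones. At 120 min it had fallen by 0.56 ± 0.10 (SE) on the log2 scale against no4sU (edgeR adjusted p = 0.00123, and at most 0.0301 without any single library). Against 15 min it fell by 0.44 ± 0.10 (edgeR adjusted p = 0.00585, but 0.0628 without 120 min A and 0.0846 without 15 min A). D030056L22Rik, a coding gene of 2 exons (chr19:18713193-18718428, plus strand), had 35.2 and 34.3 CPM in no4sU, 36.7 and 35.6 after 15 min, 33.9 and 33.9 after 30 min, 30.9 and 31.8 after 60 min, 27.6 and 29.9 after 90 min, and 24.7 and 26.8 after 120 min. From 60 min on each duration lay below the one before it, with no overlap. It had an NTR of 0.874 and 0.862 after 120 min and fell by 0.43 ± 0.08 against no4sU (edgeR adjusted p = 0.0027, 0.0533 without 120 min A) and by 0.48 ± 0.08 against 15 min (0.000814, at most 0.0189 without any single library).

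2900097C17Rik (Norad) fell less. Its CPM was 198 and 204 in no4sU, 208 and 201 after 15 min, 209 and 196 after 30 min, 185 and 185 after 60 min, 185 and 182 after 90 min, and 174 and 173 after 120 min. The 6 libraries from 60 min on were all below the earlier 6. The fall was 0.22 ± 0.05 against no4sU (edgeR adjusted p = 0.0117, 0.0935 without 120 min A and 0.0927 without 120 min B) and 0.24 ± 0.05 against 15 min (0.00487, 0.0544 without 120 min B and 0.0767 without 15 min A). Its copy Gm7292 had log2 fold changes of -0.04 and -0.22 and passed neither test (edgeR adjusted p = 0.799 and 0.0608).

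The largest falls by fold were of genes with few reads. Gm50322, a lincRNA of 1 exon, had 6.99 and 6.23 CPM in no4sU, 5.54 and 5.42 after 15 min, and 3.25 and 3.53 after 120 min, and 9330159F19Rik, a coding gene, had 5.67 and 7.37, 6.24 and 5.97, and 3.35 and 3.75. In both, the 120 min libraries were below the 4 others. Gm50322 fell by 0.95 ± 0.22 against no4sU (edgeR adjusted p = 0.00822, 0.0768 without 120 min A and 0.0665 without 120 min B) and by 0.69 ± 0.23 against 15 min (0.0447, over 0.05 without any single library, the highest 0.183 without 120 min A). 9330159F19Rik fell by 0.89 ± 0.20 against no4sU (edgeR adjusted p = 0.00567, 0.0652 without 120 min A and 0.0639 without no4sU B) and by 0.77 ± 0.20 against 15 min (0.0116, over 0.05 without any single library, the highest 0.0915 without 15 min A). Their NTRs after 120 min were 0.857 and 0.786.

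Gm45062 joins Umad1 to Glcci1 and shares 92.6% of its exonic bases with Glcci1. Its CPM was 16.1 and 19.3 in no4sU, 19.5 and 15.7 after 15 min, 17.3 and 16.2 after 30 min, 13.6 and 14.4 after 60 min, 11.8 and 12.1 after 90 min, and 13.2 and 11.1 after 120 min. The last 3 durations lay below the first 3 groups. It fell by 0.56 ± 0.13 against no4sU (edgeR adjusted p = 0.00813, 0.136 without 120 min B and 0.0595 without no4sU B) and by 0.55 ± 0.13 against 15 min (0.00782, 0.133 without 120 min B and 0.158 without 15 min A). Glcci1 fell by 0.65 and 0.61 (edgeR adjusted p = 0.00434 and 0.00567), and the reads of the shared exons cannot be told apart. 4921524J17Rik, whose NTR was 1, had 11.2 and 11.3 CPM after 15 min and 8.37 and 7.35 after 120 min and fell by 0.52 ± 0.14 (edgeR adjusted p = 0.0128, 0.146 without 120 min B, 0.0818 without 15 min A and 0.0709 without 15 min B). Gm10501, which lies opposite Hspa1l, had 6.24 and 5.87 CPM in no4sU and 3.72 and 4.35 after 120 min and fell by 0.57 ± 0.17 (edgeR adjusted p = 0.0339, over 0.05 without any single library, the highest 0.198 without 120 min A).

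**Figure D5:**
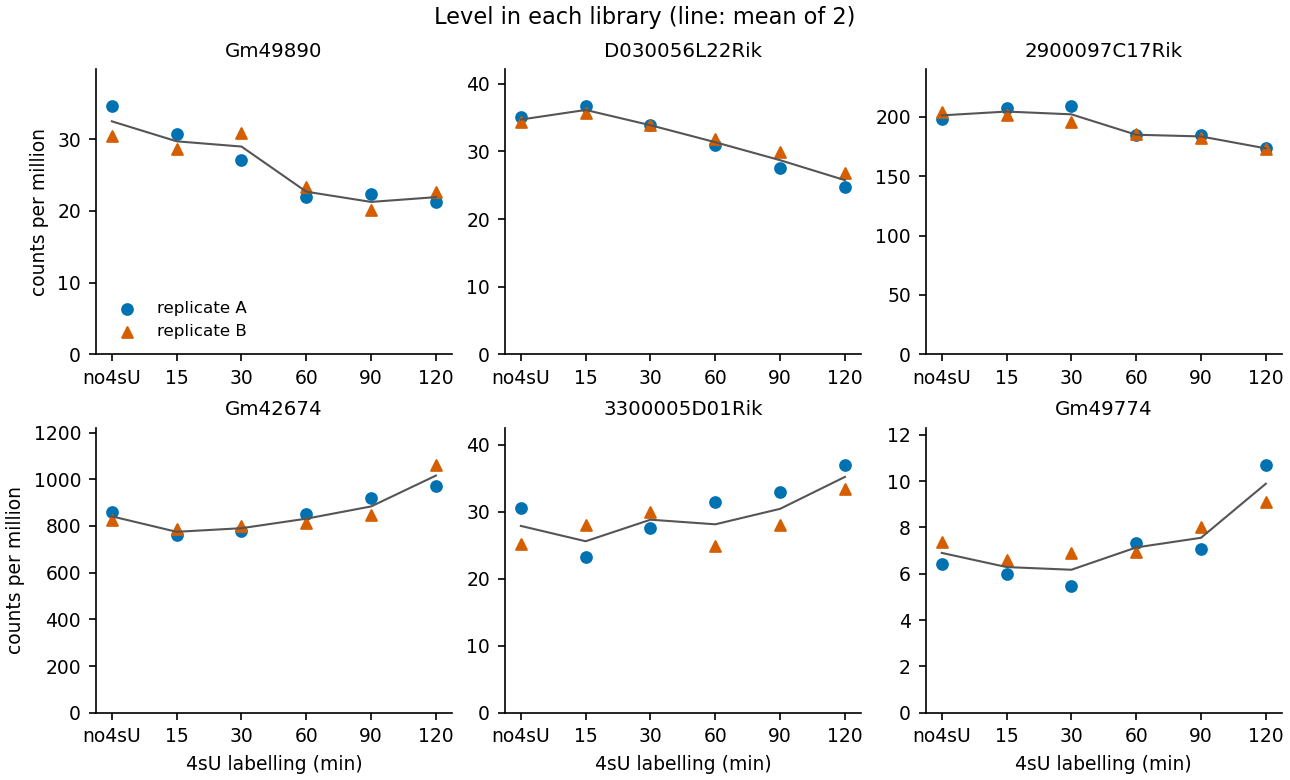
CPM in each library (circles A, triangles B, line through the means) by group for 6 Gm and Rik genes, each axis starting at 0. Gm49890, D030056L22Rik and 2900097C17Rik end lower than they start (21.2 and 22.7 against 34.6 and 30.4 CPM for Gm49890), and Gm42674, 3300005D01Rik and Gm49774 end higher.

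Among the rises, the genes of highest level were loci joined to abundant messages of low NTR. Gm42674 (S100a3 and S100a4) had 859 and 824 CPM in no4sU, 762 and 788 after 15 min, 781 and 801 after 30 min, 851 and 812 after 60 min, 919 and 848 after 90 min, and 971 and 1061 after 120 min. Both 120 min libraries were above all others, and 15 min was below no4sU. It rose by 0.27 ± 0.06 against no4sU (edgeR adjusted p = 0.00298, 0.0786 without 120 min B) and by 0.39 ± 0.06 against 15 min (0.000147, at most 0.0113 without any single library). S100a4 itself rose by 0.20 and 0.35 (edgeR adjusted p = 0.0135 and 0.000206).

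Gm49909 (Myl12a and Myl12b) had 603 and 540 CPM in no4sU, 543 and 570 after 15 min and 656 and 698 after 120 min, without overlap of the 120 min libraries. It rose by 0.25 ± 0.06 against no4sU (edgeR adjusted p = 0.00684, 0.107 without 120 min B) and by 0.28 ± 0.06 against 15 min (0.00188, 0.0539 without 120 min B and 0.0515 without 15 min A). Gm49804 (Rps10 and Nudt3) had 588 and 514 CPM in no4sU, 504 and 509 after 15 min and 626 and 640 after 120 min. It rose by 0.20 ± 0.06 against no4sU (edgeR adjusted p = 0.0198, over 0.05 without 120 min A, 120 min B or no4sU B, the highest 0.143 without 120 min B, and 0.11 on the log2 scale without no4sU B) and by 0.32 ± 0.06 against 15 min (0.000728, at most 0.0213). Gm45713 and Gm20390 rose against 15 min, and their log2 fold changes against no4sU were 0.16 and 0.12 (edgeR adjusted p = 0.0543 and 0.146). Gm45713 had 660 and 708 CPM after 15 min and 814 and 880 after 120 min and rose by 0.31 ± 0.06 (0.00107, at most 0.0405 without any single library). Gm20390 had 567 and 581, and 666 and 674, and rose by 0.22 ± 0.05 (edgeR adjusted p = 0.00787, 0.078 without 120 min B and 0.0966 without 15 min A). Whether these loci change apart from the named genes was not tested, since the reads of shared exons cannot be told apart. Among called members with shared exons, the overlapping gene of highest count was called in the same direction for 7 of 13 against no4sU. Against 15 min this held for 16 of 20. Further overlapping genes were left out of these counts, which may therefore be too low for any neighbour.

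Gm49450 and 2610507B11Rik, also among the 8 of highest level, rose against no4sU and did not pass the test against 15 min (edgeR adjusted p = 0.0916 and 0.119). Gm49450 had 351 and 314 CPM in no4sU and 386 and 378 after 120 min and rose by 0.20 ± 0.05 (edgeR adjusted p = 0.0188, over 0.05 without 120 min A, 120 min B or no4sU B, the highest 0.112 without 120 min A, and 0.12 on the log2 scale without no4sU B). 2610507B11Rik had 268 and 296 CPM in no4sU and 327 and 317 after 120 min and rose by 0.19 ± 0.06 (edgeR adjusted p = 0.0335, over 0.05 without 120 min A, 120 min B or no4sU A, the highest 0.178 without 120 min A, and 0.12 on the log2 scale without no4sU A). Gm38394 had log2 fold changes of 0.08 and -0.05 and passed neither test.

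The largest rises by fold were smaller in reads. 2200002D01Rik, a coding gene partly opposite Yif1b, had 4.54 and 4.08 CPM in no4sU and 6.88 and 6.90 after 120 min and rose by 0.69 ± 0.17 (edgeR adjusted p = 0.01, over 0.05 without 120 min A, 120 min B or no4sU B, the highest 0.0744 without 120 min B). At 15 min it already had 6.24 and 5.51 CPM. Gm49394 (Igf2) had 16.0 and 15.4 CPM in no4sU and 22.5 and 21.5 after 120 min and rose by 0.49 ± 0.12 (edgeR adjusted p = 0.00979, 0.0789 without 120 min A and 0.0591 without 120 min B), as did Igf2, by 0.45 (0.0128). Gm49711, which overlaps Slc5a3, a carrier of myo-inositol, had 16.9 and 16.1 CPM and then 21.3 and 21.8, and rose by 0.39 ± 0.11 (edgeR adjusted p = 0.0284, over 0.05 without 120 min A, 120 min B or no4sU B, the highest 0.157 without 120 min B). None of these 3 passed the test against 15 min.

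Gm49391, which overlaps Ctla2a and Ctla2b, had 12.5 and 13.9 CPM in no4sU, 13.1 and 12.7 after 15 min and 16.8 and 17.5 after 120 min. It rose by 0.37 ± 0.12 against no4sU (edgeR adjusted p = 0.0426, over 0.05 without 120 min A, 120 min B or no4sU A, the highest 0.213 without 120 min B) and by 0.41 ± 0.12 against 15 min (0.0247, over 0.05 without any single library, the highest 0.157 without 120 min B). Against 15 min, Gm49405, which shares exons with Nudt8 and Doc2g, rose by 0.58 ± 0.17 (edgeR adjusted p = 0.0202, over 0.05 without 120 min A, 15 min A or 15 min B, the highest 0.171 without 15 min A), from 5.63 and 6.42 CPM to 9.85 and 8.25. The intronless coding gene C030006K11Rik rose by 0.51 ± 0.16 (edgeR adjusted p = 0.0282, over 0.05 without any single library, the highest 0.22 without 15 min A), from 7.74 and 8.95 CPM to 12.3 and 11.6, but had 11.6 and 9.38 in no4sU. 3300005D01Rik, a lincRNA of 4 exons with own exons and an NTR of 0.383, rose by 0.46 ± 0.12 (edgeR adjusted p = 0.0138, over 0.05 without 120 min A, 120 min B or 15 min A, the highest 0.198 without 15 min A), from 23.2 and 28.0 CPM to 37.0 and 33.5.

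Gm49774 went against the relation of direction with turnover. This antisense RNA of 1 exon and 10812 bases (chr17:27545707-27556518, minus strand) had NTRs of 0.691 and 0.810 after 120 min. Its CPM was 6.42 and 7.37 in no4sU, 5.98 and 6.6 after 15 min, 5.46 and 6.89 after 30 min, 7.34 and 6.93 after 60 min, 7.08 and 8.02 after 90 min, and 10.7 and 9.08 after 120 min. Only the 120 min libraries stood above the rest. It rose by 0.50 ± 0.15 against no4sU (edgeR adjusted p = 0.0363, over 0.05 without 120 min A, 120 min B or no4sU A, the highest 0.225 without 120 min A) and by 0.64 ± 0.16 against 15 min (0.00884, 0.089 without 120 min A and 0.102 without 15 min A), and DESeq2 gave adjusted p = 0.174 and 0.0587. The 90% intervals of its NTR ran from 0.559 to 0.810 in A and from 0.651 to 0.925 in B.

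Gm49336, a coding gene with own exons that holds Mir719, was an exception in the other direction. It had an NTR of 0.408 and 127 and 159 CPM in no4sU, 151 and 153 after 15 min and 120 and 122 after 120 min, and it fell by 0.25 ± 0.08 against no4sU (edgeR adjusted p = 0.0325) and by 0.33 ± 0.08 against 15 min (0.00487, 0.0546 without 120 min A). Against no4sU its change was -0.40 without no4sU A, -0.07 without no4sU B (edgeR adjusted p = 0.435), and over 0.05 also without 120 min A (0.182) or 120 min B (0.139). Against 15 min the other exceptions were 6330403L08Rik (NTR 0.521) and Gm47283 (NTR 0.683), which rose by 0.36 each, and 1700123O20Rik (NTR 0.434) and Gm28539 (NTR 0.330), which fell by 0.34 and 0.26. Gm47283 is a near-identical copy of Erdr1, which had a log2 fold change of 0.10 and did not pass the test. Gm28539 shares 93.2% of its exonic bases with Hira, whose NTR was 0.354 and which fell by 0.23 (edgeR adjusted p = 0.0123). The reads of their shared exons cannot be told apart. Gm49336 and these other 4 exceptions were named after their values were seen. The 4 named last lost their call without single libraries: 6330403L08Rik without any of them (edgeR adjusted p = 0.114 to 0.184), Gm47283 without 120 min B (0.292) or 15 min B (0.308, with a change of 0.22), 1700123O20Rik without 120 min A (0.224, with a change of -0.23), 15 min A (0.166) or 15 min B (0.0596), and Gm28539 without 120 min A (0.135) or 15 min A (0.145).

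The count threshold fell between Gm20441 (50.2 reads), 1700048O20Rik (50.8) and 4930522L14Rik (51) on the inner side and Gm29427 (49.9), A530017D24Rik (49.7) and Gm6710 (49.3) on the outer. The NTRs after 120 min were 0.203, 0.698 and 0.613 inside and 0.411, 1 and 0.340 outside, in those orders.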

How the data were processed

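RNA of NIH-3T3 cells was measured in 12 libraries in 6 groups of 2, read from the sample titles. The submitters' processing notes name cutadapt, Bowtie2 2.3.0 and STAR 2.7.10b; the sources used here do not give roles, counting, strand use or build. The authors deposited an estimated count per gene and library, not scaled between libraries, 20.4% of the values not whole (tolerance 1e-06), which were rounded for testing. Per the file headers, the NTR is a fraction, given as posterior maximum (used), mean, and 0.05 and 0.95 quantiles (a 90% interval). The distribution parameters alpha and beta, each a deposited score, were not used, and the gene length was used in bases. 0 entries lacked a gene and 0 columns belonged to other samples.

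Tests of the deposited counts used R 4.3.3 and edgeR 4.0.16: filterByExpr (11564 genes, all 312 members), TMM (factors 0.970 to 1.02), 1 quasi-likelihood fit of the 12 libraries without covariate (common biological coefficient of variation 4.44%), Benjamini-Hochberg over all genes, adjusted p below 0.05, tested on simulated data. DESeq2 1.42.0 was the other tool. CPM used TMM library sizes. Apparent half-life was ln 2 times 120 min over -ln(1 - NTR), for NTR from 0.01 to 0.99. Genes of like count came from 5 bins of mean count.

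Locations, junctions and copies came from GENCODE M21 on GRCm38, which may not be the authors' build. Copies were aligned with BLAST 2.17.0, with at least 95% identity over at least 50% of the transcript. Tables and figures used Python 3.11.15, pandas 2.3.3, scipy 1.17.1 and matplotlib 3.10.9. The members, lists and tests were chosen with earlier results of these data known. Named were the 8 members of highest CPM, the 6 highest and 6 lowest NTRs at 120 min (mean count at least 100, interval narrower than 0.2), the 5 largest rises and falls in each 120 min comparison among called genes without CPM overlap, the 3 on either side of the threshold and the highest of each gene type, and others where said. Alternatives were library size alone, no filter, 2 groups only, a replicate block, leaving out libraries, and other count minimums and NTR summaries.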

Additional observations from a re-analysis of the deposited data

How the results depend on the processing

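The counts of members called were the least stable values, and those with a library left out have no share of all genes beside them. Against no4sU they ranged over the libraries left out from 0 to 35 at 15 min, 0 to 33 at 30 min, 0 to 29 at 60 min, 0 to 36 at 90 min and 7 to 89 at 120 min, and against 15 min from 11 to 21. At 60 min library size alone gave 1 and no filter on low counts 2. At 90 min, DESeq2 and members with at least 200 reads gave 1 each, the 2 groups alone 0, library size 8 and no filter 9. At 120 min against no4sU, DESeq2 gave 14 and the 2 groups alone 3. Against 15 min they gave 22 and 86. The cause was not tested.

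The members' median log2 fold change at 120 min was 0.0477 against no4sU and 0.0562 against 15 min. Library size alone reversed both, to -0.0186 and -0.000823, with the median of all genes at -0.060 and -0.051. Own-exon genes alone gave -0.0284 and -0.00838, and leaving out shared exons -0.00112 and 0.0180. Members with at least 100 reads gave 0.0802 against no4sU, and with at least 200 reads 0.0810 and 0.0871. Leaving out libraries gave 0.0114 to 0.0560 and 0.0428 to 0.0788.

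The median NTR of 0.398 was 0.322 with intervals narrower than 0.2, 0.368 and 0.327 with at least 100 and 200 reads, 0.505 for own exons and 0.473 without shared exons. Its difference from genes of like count was -0.0151, -0.0203 (at least 200 reads), 0.0864 and 0.0498, and the half-life of 175 min was 226, 215, 120 and 138 min, in the same order of settings.

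No large deviation shared by the libraries of a letter was seen: deviations from the group means correlated between -0.0726 and 0.0896 over 15 pairs of groups. This does not tell whether A and B mark libraries prepared together. With a replicate block, 6, 36 and 49 members were called at 90 min, 120 min and 120 against 15 min. The class subsets and all alternatives for 15 to 90 min were chosen after seeing the data. For single genes named, 550 of the repeated values kept side and direction, 131 lost the call, 23 gained it and 0 reversed.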
